A study of Mus musculus with 2 samples.

Results

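The genes described here are the chromatin modifiers and remodelers of the mouse: the enzymes that add and remove acetyl and methyl groups on histones and DNA, the proteins that read these marks, and the ATP-driven machines that move nucleosomes. They were taken by a fixed pattern of gene symbols (Hdac, Sirt, Kdm, Jarid, Jmjd, Kat, Myst, Smarc, Chd, Arid, Brd, Setd, Suv, Ezh, Cbx, Phc, Mll, Dnmt, Tet, Ing and Mbd families, with single genes such as Crebbp, Ep300, Eed, Suz12, Ring1, Rnf2, Bmi1 and Hells), and not by their measured values. The pattern itself was chosen with earlier results of these data known. It matched 125 of 12899 entries of the deposited table. Where a symbol was listed more than once, as for Chd2, Hdac4 and Tet1, its most abundant entry by mean was used, and 122 of 12684 genes remained.

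RNA was sequenced from endothelial cells (EC) of the aorta-gonad-mesonephros region (AGM), the part of the embryo in which blood stem cells arise from hemogenic endothelium (HE), at embryonic stage E10.5. GFP-depleted EC were sorted as CD31+CD117-CD45- cells without GFP from embryos of the Runx1+23GFP strain, in which an enhancer of Runx1 drives GFP, and their genotype label is GFP+. Bulk EC had the same surface phenotype with no gate on GFP, and were labelled WT, from littermates, with Runx1+23GFP also given as their strain. The results text of the study names the sorted cells as GFP-positive HE and the reference as vascular EC. Both its methods and the labels describe cells without GFP and bulk EC, and the labels are followed here, so the comparison is between EC depleted of reporter-positive cells and EC that were not gated on the reporter. Each group had 1 library. No test, p-value or standard deviation could therefore be computed, and every difference below is between 2 libraries that also differ in genotype, gate and depth, which cannot be told apart. The number of embryos behind each sort is not given in the sources used here, and a gene higher in bulk EC need not come from HE.

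Chromatin regulators are usually described by what they do to nucleosomes. Acetyltransferases open chromatin and deacetylases close it. Trithorax-type methyltransferases mark active genes on lysine 4 of histone H3, whereas the Polycomb complexes hold genes silent: PRC2 methylates lysine 27 of H3, and PRC1 reads that mark and adds ubiquitin to H2A. Remodelers of the SWI/SNF, ISWI and CHD families use ATP to slide or evict nucleosomes. In the mouse, the acetyltransferase Myst3 (Moz) and the methyltransferase Mll1 are known for their need in blood stem cells, and Smarca4 (Brg1) and Chd4 for roles in embryonic blood vessels.

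The depth recovered from the values was about 14.6 M reads for GFP-depleted EC and about 109.8 M for bulk EC, a 7.50-fold difference. Runx1, whose enhancer drives the reporter, was at 0.62 RPKM (reads scaled by gene length and library depth) in GFP-depleted EC and 0.66 RPKM in bulk EC, so its transcript gives no check of the gate. Of 9 pan-endothelial markers, 2 (22.2%) were over 1.5 fold higher in bulk EC (Eng and Cldn5), near the 23.6% of all genes that were. Eng was at 10.2 RPKM in GFP-depleted EC and 63.0 RPKM in bulk EC (6.15 fold), and Cldn5 at 83.5 and 197 RPKM (2.36 fold). The summed levels of the 9 markers were 1407 RPKM in GFP-depleted EC and 1443 RPKM in bulk EC. Markers of other cells were mostly higher in bulk EC: 6 of 6 measured megakaryocyte genes (summed 86.2 and 1238 RPKM), 6 of 7 erythroid genes (380.3 and 726.7 RPKM), 4 of 4 myeloid genes (10.7 and 33.3 RPKM), 5 of 5 somite genes (6.39 and 26.2 RPKM), 3 of 3 epithelial genes (7.65 and 37.2 RPKM) and 3 of 4 mesenchymal genes (2.72 and 5.16 RPKM), with the lower sum in GFP-depleted EC in each pair. The remaining mesenchymal gene, Lum, went the other way, at 1.80 RPKM in GFP-depleted EC and 0.21 RPKM in bulk EC (8.74 fold). Gp6, Lyz2 and Myf6 were listed at 0 in GFP-depleted EC. The part of these cells in the differences below was not tested, and fewer cells of a type cannot be told apart from less RNA per cell. Of 14 genes of S phase and mitosis, 1 (7.14%) was higher in each library, where 23.6% (bulk EC) and 15.3% (GFP-depleted EC) of all genes were.

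Most chromatin genes were at similar levels in both libraries. A gene was called higher when its plain ratio of RPKM passed 1.5 fold and it had at least 0.3 RPKM in at least 1 library, the rule of the study. All 122 genes met the minimum in at least 1 library, and 0 were listed at 0 in either. Of them, 119 met it in both libraries and 3 only through their level in bulk EC. Of the 122 genes, 16 were higher in bulk EC (13.1%) against 23.6% of all genes, and 17 were higher in GFP-depleted EC (13.9%) against 15.3% of all genes. Of the 119 genes that met the minimum in both libraries, 13 and 17 were called in these directions, against 22.5% and 14.1% of all genes that did. Among protein-coding genes of at least 1 RPKM the shares were 23.4% and 13%. The share in bulk EC was below the background and the share in GFP-depleted EC near it, and 89 chromatin genes (73%) stayed within 1.5 fold, where 61.1% of all genes did. With 0.3 RPKM added to both values, the median log2 ratio of GFP-depleted EC over bulk EC was 0.08 for the chromatin genes and -0.02 for all genes. A negative log2 ratio means a higher value in bulk EC on this scale, which understates the change of low genes. Where 2 values of a gene are given in a row, the first is that of GFP-depleted EC and the second that of bulk EC.

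**Figure D1:**
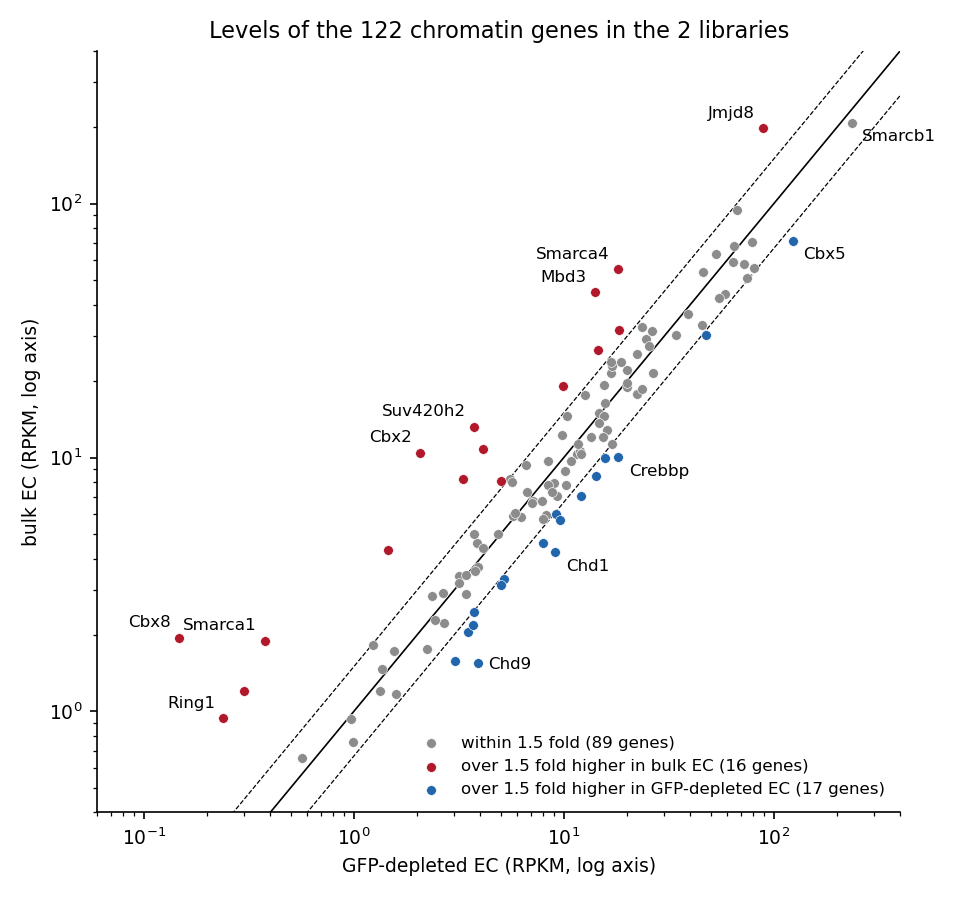
RPKM of each of the 122 chromatin genes in GFP-depleted EC (x axis, log scale) and bulk EC (y axis, log scale), 1 point a gene, with the line of equality and dashed lines at 1.5 fold. Of the 16 red points (higher in bulk EC) 8 passed 3 fold, and of the 17 blue points (higher in GFP-depleted EC) 0 did, where 6.23% and 3.25% of all genes passed it.

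Past 2 fold there were 12 chromatin genes toward bulk EC and 2 toward GFP-depleted EC, where 13.3% and 6.61% of all genes passed it. Past 3 fold there were 8 and 0, next to 6.23% and 3.25% of all genes, so the whole table also leaned toward bulk EC at these folds. Just inside the threshold, 0 genes lay between 1.5 and 1.6 fold toward bulk EC and 5 toward GFP-depleted EC (Brd7, Jmjd1c, Myst3, Phc3 and Setd2). Just outside it, 7 genes lay between 1.4 and 1.5 fold toward bulk EC and 3 toward GFP-depleted EC. The median chromatin gene held about 799 reads in GFP-depleted EC against 5667 in bulk EC, and 6 genes held under 50 reads in GFP-depleted EC. The whole exact 95% counting interval, which covers counting error only, lay past 1.5 fold for 15 of the 16 genes higher in bulk EC and for 13 of the 16 with an interval among those higher in GFP-depleted EC (Tet1 had none).

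**Figure D2:**
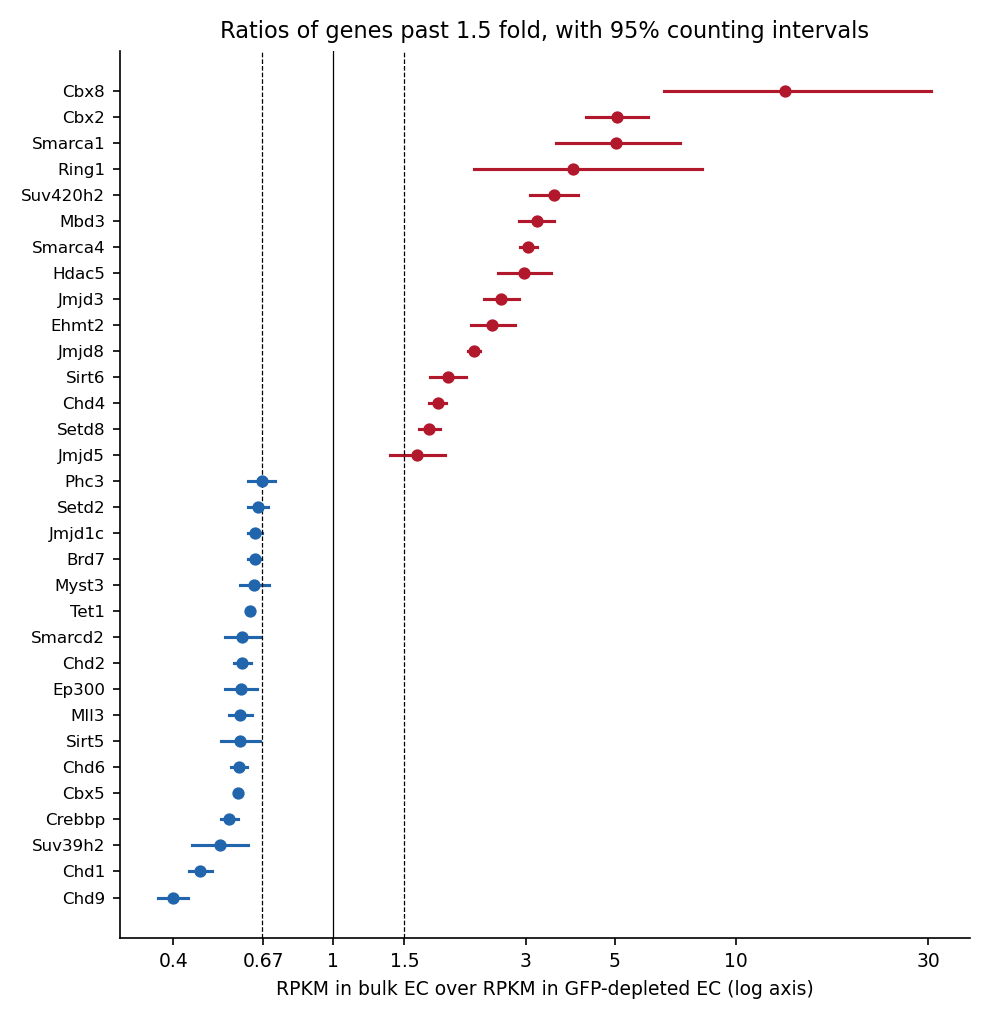
Ratio of RPKM in bulk EC over GFP-depleted EC (log axis) for the chromatin genes past 1.5 fold that are named here; points are the ratios of 1 library each, lines the 95% counting intervals, and dashed lines mark 1.5 fold in both directions. Cbx8 stands at 13.2 fold with a wide interval of 6.62 to 30.5, Chd9 at the other end, and Tet1 has no line because its entry had no exon length.

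PRC1 is the Polycomb complex that reads methylated H3 and ubiquitinates H2A. Of its 9 measured genes, 4 (44.4%) were called toward bulk EC and 1 (11.1%) toward GFP-depleted EC, where 23.6% and 15.3% of all genes were. The median log2 ratio of the 9 was 0.07. Of the 4, 3 were those under 0.3 RPKM in GFP-depleted EC, with Cbx8 and Ring1 among them. Cbx2 and Cbx8, which encode chromodomain subunits that read the mark of PRC2, were among those higher in bulk EC. Cbx8 (ENSMUSG00000025578) was at 0.15 RPKM in GFP-depleted EC and 1.95 RPKM in bulk EC, a 13.2-fold difference from about 7.93 and 787 reads. Cbx2 (ENSMUSG00000025577) was at 2.07 RPKM and 10.4 RPKM, 5.05-fold higher in bulk EC (interval 4.23 to 6.04). The log2 ratios of Cbx8 and Cbx2 were -2.33 and -2.18.

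Ring1 and Rnf2 are the ubiquitin ligases of PRC1. Ring1 was at 0.24 RPKM in GFP-depleted EC and 0.94 RPKM in bulk EC, 3.93-fold higher in bulk EC (2.24 to 8.21, from about 11.4 and 335 reads). Rnf2 (Ring1b) was at 74.4 RPKM and 51.0 RPKM, 1.46-fold higher in GFP-depleted EC and within the threshold. Rnf2 was the main ligase transcript in both libraries. Phc3, a polyhomeotic subunit, was at 3.72 RPKM and 2.47 RPKM, just past the threshold toward GFP-depleted EC (1.51 fold, 1.39 to 1.63). Bmi1 (3.90 and 3.71 RPKM), Phc1 (8.23 and 5.95 RPKM) and Phc2 (8.80 and 7.34 RPKM) were within 1.5 fold.

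The 5 PRC2 genes of the pattern were within 1.5 fold, as were 61.1% of all genes. Ezh2, the main methyltransferase of lysine 27, was at 46.1 RPKM in GFP-depleted EC and 53.9 RPKM in bulk EC, and its relative Ezh1 at 3.86 and 4.60 RPKM. Ezh2 exceeded Ezh1 by 11.9 fold in GFP-depleted EC and 11.7 fold in bulk EC, so the balance of the pair was nearly the same. The partner Eed was at 58.2 and 43.9 RPKM, Suz12 at 11.7 and 11.3 RPKM, and the targeting subunit Jarid2 at 23.5 and 32.7 RPKM. The median log2 ratio of the 5 genes was -0.23.

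Chromatin remodelers of the SWI/SNF family gave 1 call (8.33%) toward bulk EC and 2 (16.7%) toward GFP-depleted EC among 12 genes. The shares of all genes were 23.6% and 15.3%. The median log2 ratio of the 12 was 0.12. Smarca4 (Brg1, ENSMUSG00000032187, chromosome 9, 21420613 to 21507810 on mm9), the ATPase of the complex, was at 18.1 RPKM in GFP-depleted EC and 55.3 RPKM in bulk EC. It was 3.05-fold higher in bulk EC (2.90 to 3.20), with a log2 ratio of -1.59. The alternative ATPase Smarca2 (Brm) was at 7.98 RPKM and 5.72 RPKM, within 1.5 fold. Smarca4 thus exceeded Smarca2 by 2.27 fold in GFP-depleted EC and by 9.66 fold in bulk EC. Smarcd2, a subunit known for its need in granulocyte development, was at 9.56 RPKM and 5.68 RPKM, 1.68-fold higher in GFP-depleted EC (1.52 to 1.85). Brd7, a bromodomain subunit, was at 47.5 and 30.2 RPKM (1.57 fold, 1.51 to 1.63).

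The other SWI/SNF genes of the pattern were within the threshold. Smarcb1, a core subunit, was the most abundant chromatin gene by mean RPKM, at 235.4 RPKM in GFP-depleted EC and 208.5 RPKM in bulk EC. Smarcc1 was at 16.7 and 23.7 RPKM and its relative Smarcc2 at 7.04 and 6.61 RPKM. The DNA-binding subunit Arid1a was at 15.7 and 16.4 RPKM, and Arid1b at 2.35 and 2.85 RPKM. Smarca4 had the largest ratio of the 12 genes, and Smarcb1, Smarcc1 and Smarcc2 did not pass the threshold.

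Among the ISWI helicases the abundant gene was level and the rare one was not. Smarca5 (Snf2h) was at 14.7 RPKM in GFP-depleted EC and 13.7 RPKM in bulk EC. Smarca1 (Snf2l, ENSMUSG00000031099, chromosome X, 45162547 to 45246151 on mm9) was at 0.38 RPKM and 1.90 RPKM, 5.03-fold higher in bulk EC (3.56 to 7.25, from about 33.8 and 1276 reads). Hells, a helicase needed for DNA methylation, was at 52.8 and 63.2 RPKM.

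Of the 8 CHD remodelers, 4 (50%) were called toward GFP-depleted EC and 1 (12.5%) toward bulk EC, where 15.3% and 23.6% of all genes were. The median exon length was 11065 bases for the 8 genes and 3394.5 bases for all genes. The median log2 ratio of the CHD remodelers was 0.31, and between 0.17 and 0.74 under the other ways of processing. Chd9 (ENSMUSG00000056608, chromosome 8, 93352736 to 93578407 on mm9) was at 3.90 RPKM in GFP-depleted EC and 1.56 RPKM in bulk EC. It was the chromatin gene with the largest ratio toward GFP-depleted EC, 2.51 fold (2.30 to 2.72). Chd1, which reads the lysine 4 mark of active promoters, was at 9.10 RPKM and 4.25 RPKM (2.14 fold, 2.01 to 2.29). Chd6 was at 7.92 and 4.61 RPKM (1.72 fold, 1.64 to 1.80), a call that was lost when the trend on exon length was subtracted (log2 ratio 0.55). Chd2 was at 14.3 and 8.46 RPKM (1.68 fold, 1.60 to 1.77), and its other entry at 12.6 and 6.72 RPKM (1.87 fold). Chd7 (9.75 and 12.3 RPKM), mutated in human CHARGE syndrome, and Chd8 (3.15 and 3.41 RPKM) were within 1.5 fold.

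Chd4, the helicase of the NuRD deacetylase complex, went the other way. It was at 14.6 RPKM in GFP-depleted EC and 26.5 RPKM in bulk EC, 1.82-fold higher in bulk EC (1.73 to 1.91). Mbd3, the methyl-CpG-binding-domain subunit of NuRD, was at 14.0 RPKM and 44.9 RPKM, 3.20-fold higher in bulk EC (2.89 to 3.54). Chd3, the rarer NuRD helicase, was at 1.23 and 1.83 RPKM (1.48 fold) and did not pass the threshold. Mbd2, which takes the place of Mbd3 in a separate form of NuRD, was at 8.39 and 7.78 RPKM. Mbd3 exceeded Mbd2 by 1.67 fold in GFP-depleted EC and by 5.77 fold in bulk EC. The deacetylases shared by NuRD were not higher in bulk EC: Hdac1 was at 80.3 and 55.7 RPKM (1.44-fold higher in GFP-depleted EC) and Hdac2 at 16.0 and 12.9 RPKM.

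**Figure D3:**
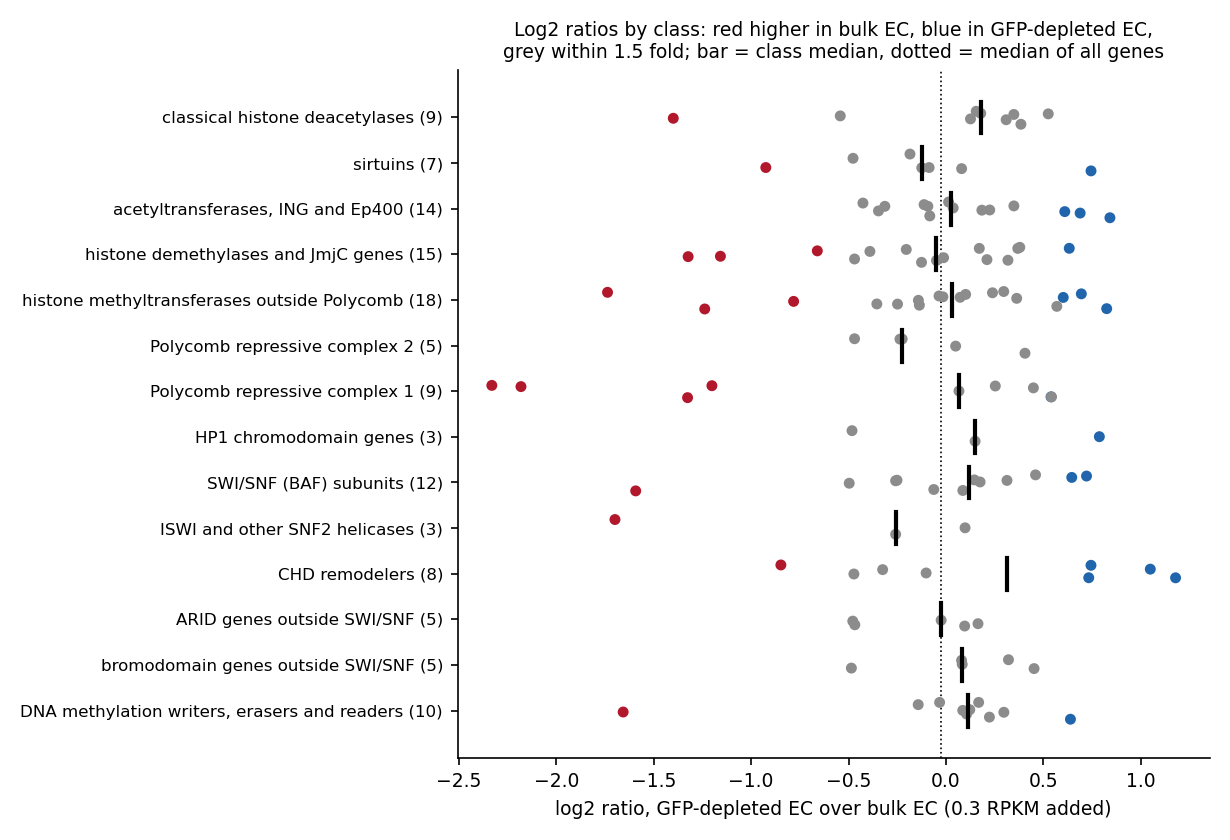
Log2 ratio of GFP-depleted EC over bulk EC (x axis, 0.3 RPKM added) for the chromatin genes in 14 classes, with the number of genes of each class in brackets; Jarid2 counts in PRC2 and among the JmjC genes. Red points passed 1.5 fold toward bulk EC, blue points toward GFP-depleted EC; black bars are class medians, from -0.26 (ISWI and other helicases) to 0.31 (CHD), and the dotted line is the median of all genes.

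Of 18 histone methyltransferases outside Polycomb, 3 (16.7%) passed the threshold in each direction. Of all genes, 23.6% passed it toward bulk EC and 15.3% toward GFP-depleted EC. Of 3 enzymes of lysine 20 on histone H4, Setd8 and Suv420h2 were higher in bulk EC and Suv420h1 was level. Setd8, which adds the first methyl group, was at 18.4 RPKM in GFP-depleted EC and 31.8 RPKM in bulk EC (1.73 fold, 1.63 to 1.84), and did not pass the threshold once the GC trend described below was subtracted. Suv420h2 (Kmt5c, ENSMUSG00000059851, chromosome 7, 4691717 to 4699116 on mm9), which adds the next ones, was at 3.75 and 13.2 RPKM (3.52 fold, 3.07 to 4.04). Its relative Suv420h1 was at 3.18 and 3.22 RPKM, so that Suv420h2 exceeded it by 1.18 fold in GFP-depleted EC and by 4.11 fold in bulk EC.

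The enzymes of lysine 9 on H3, the mark of silent heterochromatin, were split. Ehmt2 (G9a) was at 3.33 RPKM in GFP-depleted EC and 8.26 RPKM in bulk EC, 2.48-fold higher in bulk EC (2.20 to 2.82). Its partner Ehmt1 was at 24.6 and 29.3 RPKM, more abundant than Ehmt2 by 7.40 fold in GFP-depleted EC and 3.55 fold in bulk EC. Suv39h2 was at 3.04 and 1.58 RPKM, 1.92-fold higher in GFP-depleted EC (1.63 to 2.25), and the more abundant Suv39h1 at 54.9 and 42.6 RPKM. Of the readers of this mark, the heterochromatin protein Cbx5 (HP1 alpha) was at 123.4 and 71.4 RPKM, 1.73-fold higher in GFP-depleted EC (1.70 to 1.76). Cbx1 (78.6 and 70.8 RPKM) and Cbx3 (10.3 and 14.6 RPKM) were within 1.5 fold.

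Of the methyltransferases of active genes, Mll3 and Setd2 were higher in GFP-depleted EC. Mll3, which marks enhancers on lysine 4, was at 3.71 RPKM in GFP-depleted EC and 2.18 RPKM in bulk EC (1.70 fold, 1.59 to 1.82). Setd2, which trimethylates lysine 36, was at 9.21 and 5.97 RPKM (1.54 fold, 1.46 to 1.63). With 1 RPKM added to both values, the log2 ratios of Mll3 (0.57) and Setd2 (0.55) fell short of the threshold of 0.58, as they did with the GC trend subtracted. Mll1 was at 3.78 and 3.58 RPKM and Mll2 at 5.88 and 6.04 RPKM. Neither Mll1 nor Mll2 passed the threshold, and neither did Setd1a, at 1.55 and 1.73 RPKM, of which 51.8% of the exonic bases lie inside other genes.

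Of the 14 acetyltransferases and partners, 3 (21.4%) were called toward GFP-depleted EC and 0 toward bulk EC, where 15.3% and 23.6% of all genes were. Crebbp (CBP, ENSMUSG00000022521, chromosome 16, 4084048 to 4213390 on mm9) was at 18.2 RPKM in GFP-depleted EC and 10.01 RPKM in bulk EC, 1.81-fold higher (1.73 to 1.91). Its relative Ep300 was at 3.51 and 2.06 RPKM (1.70 fold, 1.55 to 1.86). The balance of the pair was similar in both, with Crebbp at 5.18 times Ep300 in GFP-depleted EC and 4.85 times in bulk EC. Myst3 was at 5.21 and 3.31 RPKM (1.57 fold, 1.45 to 1.71). With 1 RPKM added to both values, the log2 ratios of Ep300 (0.56) and Myst3 (0.53) were under the threshold of 0.58, which left Crebbp, and Myst3 was also under it with the GC trend subtracted. The most abundant gene of the class, Ing1, was at 64.5 and 68.3 RPKM.

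Deacetylases were mostly within 1.5 fold, as were 61.1% of all genes. Of the 9 classical enzymes, 1 (11.1%) was called toward bulk EC and 0 toward GFP-depleted EC, where 23.6% and 15.3% of all genes were. The called gene, Hdac5, was at 1.45 RPKM in GFP-depleted EC and 4.33 RPKM in bulk EC (2.98-fold higher in bulk EC, 2.57 to 3.46). Hdac5 is a class IIa enzyme that shuttles between nucleus and cytoplasm. Its relative Hdac4 had 2 entries, a 294-base one at 23.7 and 18.5 RPKM, which was kept, and the 215637-base gene at 5.36 and 4.57 RPKM. Against the longer entry, Hdac4 exceeded Hdac5 by 3.68 fold in GFP-depleted EC and by 1.06 fold in bulk EC. Hdac7, the class IIa enzyme known from endothelium, was at 13.4 and 12.0 RPKM, and Hdac3, the subunit of the nuclear receptor corepressors, at 64.1 and 58.7 RPKM. Among the 7 sirtuins, 1 (14.3%) was called in each direction. Sirt6, which deacetylates H3, was at 9.93 and 19.1 RPKM (1.93-fold higher in bulk EC, 1.74 to 2.13). Sirt5, a mitochondrial enzyme, was at 12.0 and 7.05 RPKM (1.70-fold higher in GFP-depleted EC, 1.52 to 1.91), and Sirt2, the most abundant, at 22.4 and 25.5 RPKM.

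Of 15 demethylases and JmjC genes, 3 (20%) were called toward bulk EC and 1 (6.67%) toward GFP-depleted EC, where 23.6% and 15.3% of all genes were. Jmjd3 (Kdm6b), which removes the mark of PRC2, was at 4.13 RPKM in GFP-depleted EC and 10.8 RPKM in bulk EC (2.61 fold, 2.37 to 2.89). Jmjd8, a JmjC gene not known to act on histones, was the most abundant, at 88.8 and 198 RPKM (2.24 fold, 2.16 to 2.31), with 27.1% of its exonic bases inside other genes. Jmjd5 was at 5.02 and 8.10 RPKM (1.62 fold, 1.38 to 1.90), an interval that reaches below the threshold. Jmjd1c was at 15.6 and 9.98 RPKM (1.57-fold higher in GFP-depleted EC, 1.51 to 1.63). The lysine 4 demethylases Jarid1a (34.2 and 30.4 RPKM), Jarid1b (10.3 and 7.82 RPKM) and Jarid1c (3.73 and 4.99 RPKM) were within 1.5 fold.

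DNA methyltransferases did not pass the threshold. Dnmt1, which copies methylation after replication, was at 39.0 RPKM in GFP-depleted EC and 36.7 RPKM in bulk EC. The de novo enzymes were at 11.9 and 10.6 RPKM (Dnmt3a) and at 7.91 and 6.73 RPKM (Dnmt3b), with Dnmt3a in excess by 1.51 fold and 1.57 fold. Tet1, which oxidizes methylcytosine, was at 5.04 and 3.13 RPKM (1.61-fold higher in GFP-depleted EC), and its other entry at 3.88 and 1.85 RPKM (2.10 fold). The 5 ARID genes outside SWI/SNF and the 5 bromodomain genes outside it had 0 calls, where 61.1% of all genes were within 1.5 fold. Among them, Arid4b was at 12.7 and 17.6 RPKM and Brd3 at 67.1 and 94.0 RPKM.

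Further genes of the same complexes and pathways, outside the symbol pattern, were read from a separate list of 90, of which 85 were measured. Of these, 20 (23.5%) were called toward bulk EC and 7 (8.24%) toward GFP-depleted EC, shares next to 23.6% and 15.3% of all genes, and their median log2 ratio was -0.09. Among accessory subunits of PRC2, Phf19 was at 0.0089 RPKM in GFP-depleted EC, less than 1 read, and 1.16 RPKM in bulk EC, and the histone chaperone Rbbp7, also part of NuRD, was at 140.5 and 250.6 RPKM. The PRC1 subunits Pcgf2 (Mel18) and Pcgf1 lay in opposite directions, at 1.51 and 4.33 RPKM and at 9.54 and 4.73 RPKM. In the list of NuRD, Sin3 and CoREST, 3 of 12 genes (25%) were called toward bulk EC and 2 (16.7%) toward GFP-depleted EC. These shares were near the 23.6% and 15.3% of all genes. Of the NuRD subunits toward bulk EC, Gatad2a was at 12.8 and 22.9 RPKM (1.80 fold, 1.69 to 1.92) and Mta2 at 34.6 and 55.6 RPKM (1.61 fold, 1.54 to 1.68). The CoREST gene Rcor3 was at 4.91 and 9.26 RPKM (1.89 fold, 1.66 to 2.15). Gatad2b, the relative of Gatad2a, was at 14.6 and 5.07 RPKM, 2.88-fold higher in GFP-depleted EC (2.57 to 3.24), and the Sin3 scaffold Sin3a was at 11.7 and 5.95 RPKM (1.96 fold, 1.82 to 2.11). Men1 (menin), a partner of Mll1, was at 11.3 and 28.7 RPKM, 2.55-fold higher in bulk EC (2.34 to 2.78), and the arginine methyltransferase Prmt1 at 16.5 and 31.5 RPKM. The SWI/SNF subunits Bcl7b (15.4 and 29.2 RPKM) and Bcl7a (4.60 and 7.81 RPKM) and the helicase Ruvbl2 (52.6 and 88.8 RPKM) were higher in bulk EC. Baz2a (5.21 and 3.30 RPKM) and the methyl-CpG binder Zbtb38 (5.63 and 3.50 RPKM) were higher in GFP-depleted EC. With the GC trend described below subtracted, the log2 ratios of Gatad2a (-0.46), Mta2 (-0.51), Bcl7b (-0.57), Ruvbl2 (-0.20) and Zbtb38 (0.53) fell short of the threshold of 0.58. The other called genes named from this list stayed past it, Prmt1 narrowly (-0.590, against 0.585).

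**Figure D4:**
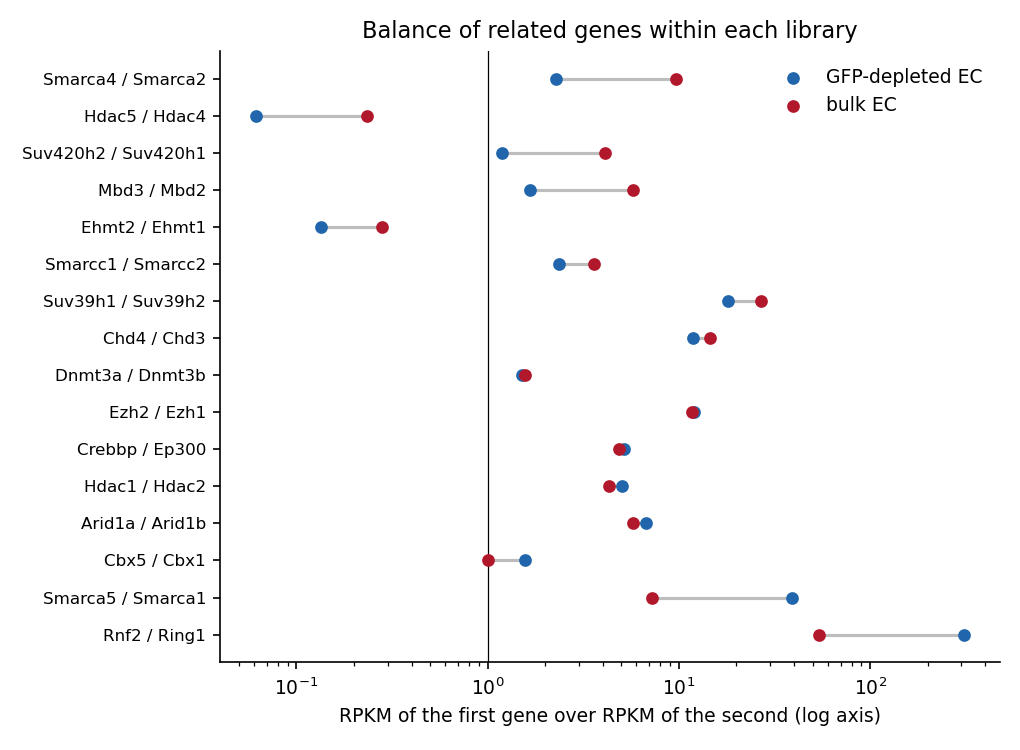
RPKM of the first gene over that of the second (x axis, log scale) for 16 pairs of related chromatin genes, within GFP-depleted EC (blue) and within bulk EC (red), 1 library each. Smarca4 over Smarca2 went from 2.27 to 9.66 and Mbd3 over Mbd2 from 1.67 to 5.77, whereas Ezh2 over Ezh1 was 11.9 and 11.7. Hdac4 stands with its kept 294-base entry, and the point of Rnf2 over Ring1 in GFP-depleted EC rests on about 11.4 reads of Ring1. The ratios are of plain RPKM, with no GC trend subtracted.

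The chromatin genes that differed also differed in base composition. Exonic GC content was known for 121 of the 122 genes, from an annotation of the same build. Its median was 57.3% for the genes higher in bulk EC, 45.3% for those higher in GFP-depleted EC and 50.6% for those within 1.5 fold. Of the 16 genes higher in bulk EC, 15 were over 53% and Smarca1 was at 38.3%. Of the 16 measured genes higher in GFP-depleted EC, 14 were under 50%, and Crebbp and Smarcd2 were over 53%. The exon length of the same 3 groups had medians of 4146, 9356 and 5615 bases.

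The same slope ran through the whole table. Across the 121 chromatin genes, the log2 ratio and GC content had a Spearman rho of -0.34 and a Pearson r of -0.39, and across 10845 protein-coding genes they had -0.38 and -0.36. Genes are not independent replicates and share both libraries, so these are descriptions. Of the 25 chromatin genes over 55% GC, 40% were higher in bulk EC, where 49.6% of the 2267 protein-coding genes in that range were. Of the 27 chromatin genes up to 45% GC, 25.9% were higher in GFP-depleted EC, where 19.1% of 2711 were.

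After the GC trend over protein-coding genes was subtracted, 14 chromatin genes lay past 1.5 fold toward bulk EC, 12 of them among the original 16, and 17 toward GFP-depleted EC, 10 of them among the original 17. Of the 12144 genes with a GC value, 17.3% and 14.9% lay past it in the same directions. These calls were made on the log2 ratio with 0.3 RPKM added, with a threshold of 0.58. Cbx8 (-2.04), Smarca1 (-1.93), Cbx2 (-1.59), Smarca4 (-1.19) and Suv420h2 (-1.10) kept log2 ratios below -1. Mbd3 (-0.70 from -1.66) and Jmjd3 (-0.67 from -1.32) stayed past the threshold with smaller ratios, whereas Ehmt2 (-0.48), Sirt6 (-0.31), Setd8 (-0.52) and Jmjd5 (-0.40) did not pass it. On the other side, Chd9 (1.04), Chd1 (0.89), Crebbp (1.04) and Smarcd2 (1.17) stayed past it, while Tet1 had no value. Brd7 (0.54), Jmjd1c (0.48), Mll3 (0.583, against 0.585), Myst3 (0.54), Phc3 (0.37) and Setd2 (0.45) did not pass it, and Phc3 was under it on this scale before the subtraction too (0.54). Genes that passed only after the subtraction were Arid4b and Cbx3 toward bulk EC, and Brd2, Hdac10, Hdac7, Jmjd2b, Kat2a, Mbd6 and Phc2 toward GFP-depleted EC. The relatives of Ehmt2, Mbd3, Suv420h2 and Smarca4 were at -0.30 (Ehmt1), 0.19 (Mbd2), -0.14 (Suv420h1) and 0.55 (Smarca2) after the subtraction. Ehmt2 and Ehmt1, Mbd3 and Mbd2, Suv420h2 and Suv420h1, and Smarca4 and Smarca2 each lay closer together than before it. The balances of related genes given above are of plain RPKM, with no trend subtracted. The part of base composition in these differences was not tested beyond this subtraction.

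The trend on exon length was subtracted in the same way. It left 16 chromatin genes past 1.5 fold toward bulk EC, 15 of them among the original 16, and 12 toward GFP-depleted EC, 10 of them among the original 17. Of the 12144 genes with an exon length, 19.6% and 15.8% lay past it. Toward GFP-depleted EC, Chd6 (0.55), Jmjd1c (0.49), Mll3 (0.49), Myst3 (0.55), Phc3 (0.39) and Setd2 (0.52) did not pass the threshold of 0.58, Tet1 had no value, and Hdac1 and Rnf2 passed it. Toward bulk EC, Jmjd5 (-0.55) no longer passed it and Arid4b did. The part of exon length was not tested beyond this subtraction.

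**Figure D5:**
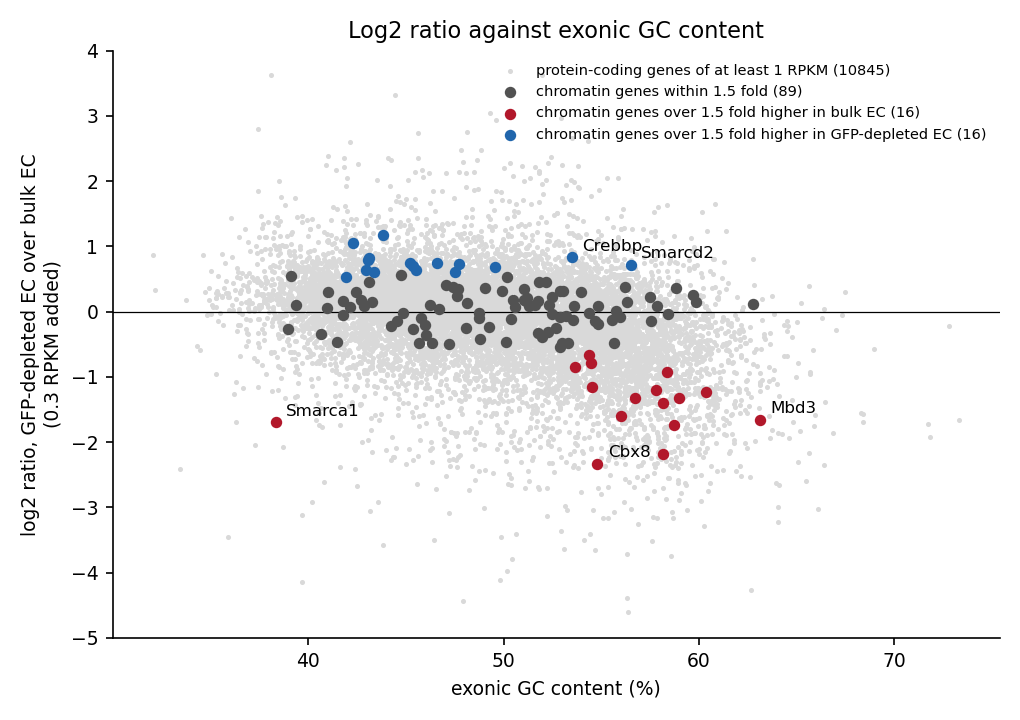
Log2 ratio of GFP-depleted EC over bulk EC (y axis, 0.3 RPKM added) against exonic GC content in percent (x axis); grey points are 10845 protein-coding genes, dark points the chromatin genes within 1.5 fold, red and blue points those past it. Red points cluster at high GC content except Smarca1 at 38.3%, and blue points at low GC content except Crebbp and Smarcd2.

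Because the study concerns Meis1, a homeobox factor whose family binds the hexamer TGACAG, the promoters of the chromatin genes were read for it and for the GC box GGGCGG of Sp1, on both strands. The 250 bases before the start were taken from RefSeq (GRCm38.p6), where 100 of the 122 genes had an entry. TGACAG occurred in 12% of these promoters and in 16% of the promoters of 27025 genes. GGGCGG occurred in 74% and in 32.9%, and the median number of CpG was 20 and 6. The 27025 genes were not limited to the 12684 measured here, as the chromatin genes were, so the sets compared are unlike. Whether these shares differ from those of other measured genes was not tested. Of the genes higher in bulk EC, 3 of 13 (23.1%) held TGACAG, namely Hdac5, Smarca1 and Suv420h2. Of those higher in GFP-depleted EC, 1 of 14 (7.14%) did, namely Chd9, and of those within 1.5 fold 11% did. GGGCGG occurred in 76.9% of the promoters of genes higher in bulk EC. It occurred in 100% of those higher in GFP-depleted EC and in 68.5% of those within 1.5 fold. The median number of CpG in these groups was 13, 22 and 21. These splits were not tested. A match is a description of letters and not a binding site.

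The promoters of the 3 genes with the largest log2 ratios in each direction that had an entry show these letters in place, with both motifs in capitals, on either strand, in the direction of the gene. Those of Cbx8 (chr11:119040914-119041163, minus strand), Suv420h2 (chr7:4739877-4740126, plus strand) and Smarca1 (chrX:47892614-47892863, minus strand) belong to genes higher in bulk EC. Those of Chd9 (chr8:90828585-90828834, plus strand), Crebbp (chr16:4213405-4213654, minus strand) and Suv39h2 (chr2:3474987-3475236, minus strand) belong to genes higher in GFP-depleted EC. Cbx2 and Chd1 had no entry.
Cbx8: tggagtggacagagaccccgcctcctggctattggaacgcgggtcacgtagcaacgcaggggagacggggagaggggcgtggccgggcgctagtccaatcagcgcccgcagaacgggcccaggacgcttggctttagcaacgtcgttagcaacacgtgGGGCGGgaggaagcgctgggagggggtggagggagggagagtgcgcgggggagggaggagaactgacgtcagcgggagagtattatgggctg
Suv420h2: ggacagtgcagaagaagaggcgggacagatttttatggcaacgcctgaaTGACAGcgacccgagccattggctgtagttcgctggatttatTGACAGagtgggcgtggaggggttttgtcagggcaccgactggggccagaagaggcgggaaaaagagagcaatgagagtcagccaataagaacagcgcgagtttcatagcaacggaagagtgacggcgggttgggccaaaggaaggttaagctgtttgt
Smarca1: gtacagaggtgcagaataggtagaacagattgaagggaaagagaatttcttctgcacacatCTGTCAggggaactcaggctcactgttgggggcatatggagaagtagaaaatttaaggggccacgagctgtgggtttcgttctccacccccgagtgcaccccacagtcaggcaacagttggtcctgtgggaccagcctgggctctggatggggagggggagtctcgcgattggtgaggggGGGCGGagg
Chd9: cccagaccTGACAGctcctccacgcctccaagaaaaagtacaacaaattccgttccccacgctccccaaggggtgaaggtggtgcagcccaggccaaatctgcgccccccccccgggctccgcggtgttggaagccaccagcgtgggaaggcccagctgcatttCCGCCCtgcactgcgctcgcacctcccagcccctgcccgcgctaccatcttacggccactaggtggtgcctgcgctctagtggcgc
Crebbp: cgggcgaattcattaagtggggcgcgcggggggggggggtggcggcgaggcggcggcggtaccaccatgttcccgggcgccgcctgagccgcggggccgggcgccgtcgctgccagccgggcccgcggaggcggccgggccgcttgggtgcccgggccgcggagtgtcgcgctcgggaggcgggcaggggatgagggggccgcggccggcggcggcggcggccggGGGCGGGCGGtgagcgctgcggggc
Suv39h2: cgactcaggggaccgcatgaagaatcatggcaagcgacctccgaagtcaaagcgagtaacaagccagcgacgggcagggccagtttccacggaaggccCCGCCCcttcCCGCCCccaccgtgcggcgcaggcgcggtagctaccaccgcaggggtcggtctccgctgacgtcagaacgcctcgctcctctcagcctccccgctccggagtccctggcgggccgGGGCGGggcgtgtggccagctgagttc
Suv420h2 held TGACAG at 2 places and no GC box, Smarca1 held each motif at 1 place, and Cbx8 held 1 GC box. Chd9 held each motif at 1 place, Crebbp held 2 overlapping GC boxes and Suv39h2 held 3. The CpG count was 44 in Crebbp, 27 in Suv39h2, 22 in Cbx8, 16 in Chd9, 13 in Suv420h2 and 6 in Smarca1.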

How the data were processed

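The study extracted RNA from sorted EC, amplified the cDNA, sequenced both libraries in 1 lane and aligned the reads to mm9. BWA 0.5.7 and Cuffdiff are named in the submitters' processing notes. The authors deposited 1 table of RPKM values per gene and library, not counts, and a column of their own fold changes, which was not used. Which annotation and counter were used, and whether strand was, is not given in the sources used here.

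Classes, other chromatin genes, markers and the symbol pattern were chosen with earlier results of these data known. Named with full values were, per class, the up to 3 called genes in each direction with the largest log2 ratio, the most abundant gene and related genes side by side, and in the other lists the 2 largest ratios; other genes are given by counts or as levels, and some were named for their known role after their values were seen. The values of a few genes are not reported here, though the counts and medians include them.

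Depth was recovered from the steps of the RPKM values in features under 150 bases, taking a read length of 100 bases: 98.9% of 369 and 98.9% of 360 values lay within 0.15 of a whole multiple, where chance gives 30%. Reads per gene are approximate, from exon lengths in GENCODE M1 (mm9; 12341 identifiers matched), and the exact 95% intervals conditional on them cover counting error only, since PCR reads are not independent molecules. The lowest mean in the table was 0.500 RPKM, so the minimum of 0.3 RPKM removed no gene. GC and length trends were lowess fits (span 0.3) over protein-coding genes with 1 RPKM or more, with statsmodels 0.14.6. The steps were tested on simulated data. Where gene models overlap (over 5% of exonic bases in 14 chromatin genes), reads could not be assigned without strand. The alternatives tried were another pseudocount, threshold, scaling and minimum (also in both libraries), the GC and length trends, and other handling of repeated and overlapping entries. Coordinates of genes are those of the table (mm9, 1-based), and those of promoters RefSeq's (GRCm38.p6).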

Additional observations from a re-analysis of the deposited data

How the results depend on the processing

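No paired analysis was possible because there was 1 library a group, which also leaves no replicate to leave out. With 1 RPKM added before the ratio, 11 chromatin genes were called higher in GFP-depleted EC in place of 17, without Ep300, Mll3, Myst3, Phc3, Setd2 and Tet1, and 1301 of all genes in place of 1939. At a threshold of 2 fold, 12 were higher in bulk EC and 2 in the other library, and 1683 and 839 of all genes were higher in bulk EC and GFP-depleted EC in place of 2997 and 1939. Quantile scaling moved the median log2 ratio of the chromatin genes from 0.08 to 0.18, and that of all genes by 0.10. The remaining alternatives gave between 13 and 16 chromatin genes higher in bulk EC, and between 12 and 21 in the opposite direction. The sign of the log2 ratio of the called genes did not reverse under any alternative that gave a value. Class medians were small: those of 5 of 14 classes (sirtuins, JmjC genes, methyltransferases, PRC1 and ARID genes) took both signs across the alternatives. The GC trend and the combined GC and length trends moved 34 of the named genes by more than their counting interval, and 28 moved under quantile scaling. The alternatives on the minimum in both libraries, on overlapping entries, on the lowest entry, on the call after adding 0.3 RPKM and on both trends together were chosen after seeing the data. Depth limited Cbx8, Ring1, Setd6, Smarca1 and Sirt4, among others, with under 50 reads each in GFP-depleted EC.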
